A study of Homo sapiens with 4 samples.

Results

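The 46 genes described here encode the machinery of DNA replication and of the passage from G1 into S phase, and were picked by gene symbol out of the 63241 genes of a deposited RNA sequencing count table. They were sorted by textbook role into 10 groups: origin licensing, the MCM2-7 helicase core, helicase activation, polymerases and primase, the sliding clamp and its loader, Okazaki fragment maturation, single-strand binding, nucleotide supply, cyclin E with E2F factors, and chromatin factors that work at the fork. All 46 symbols were found, and 45 passed a filter of at least 1 CPM (scaled counts per 1000000) in at least 1 library. The exception was E2F2, a transcription factor of the E2F family, with 5 counts in the control library and 0 in each of the other 3.

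The cells were LX-2, an immortalised human line derived from stellate cells, which lay down scar matrix in the injured liver. All cultures were grown in 10% serum and starved for 24 h in 0.5% serum before treatment. The control received no TGF-β. The second group received TGF-β, a cytokine that drives stellate cells to make matrix, at 20 ng/mL for 24 h. The remaining groups received the same TGF-β together with BDS4 or with RVX-208, each at 5 µM for 24 h. RVX-208 is an inhibitor of the BET bromodomain proteins with a preference for the second bromodomain, and BDS4 is a code name from a series whose title concerns covalent inhibitors of the first one. There was 1 library per group, so no difference below could be set against the spread between cultures and no test across samples was made. The TGF-β library is labelled as having received DMSO and the control is not, and the column of the BDS4 library was tied to its sample by the description alone.

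Replication begins in G1, when the origin recognition complex, CDC6 and CDT1 load the ring-shaped MCM2-7 helicase onto DNA. At the start of S phase, cyclin E kinase and other factors activate the helicase, with CDC45 and GINS joining it, and polymerases follow with the clamp PCNA. Transcription factors of the E2F family switch on many of these genes as cells leave G1, and serum starvation is known to hold many cell types in G0 or G1. In RNA from a whole culture, fewer cells in S phase and less RNA per cell cannot be told apart.

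The libraries held between 17022369 and 22503094 counts, and 16099 genes passed the filter. A count of 0 allowed up to 3 counts, or 0.126 to 0.178 CPM depending on the library. The BDS4 library stood apart from the other 3 in measures that need not concern the cell cycle. Mitochondrial ribosomal RNA made up 0.903% of its counts, against 0.212% in the control, 0.248% with TGF-β and 0.230% with RVX-208. All 7 long non-coding RNAs of a fixed list were at least 2-fold above the TGF-β library, beside 14.5% of all genes called higher. NEAT1 was among them, at 968 against 60.6 CPM. Against the control 5 of 7 were so, beside 14.9% of all genes, and against RVX-208 4 of 7, beside 11.7%. RVX-208 itself had 2 of 7 above TGF-β, beside 2.94% of all genes. In the BDS4 library the 13 mitochondrial mRNAs had a median log2 ratio of -0.60 against TGF-β. The shifts of the BDS4 library accompany every result from it below, and their part in those results was not tested. Hepatocyte, macrophage and endothelial markers were low in all libraries. The summed level of 7 hepatocyte markers was 1.62 to 3.80 CPM, that of 6 macrophage markers 3.03 to 8.60 CPM, and that of 6 endothelial markers 12.2 to 15.7 CPM. The 7 cholangiocyte and epithelial markers were not low, and summed to 195 to 853 CPM, lowest with BDS4 and highest with TGF-β. The 12 stellate and myofibroblast markers together stood at 5325 to 10467 CPM. Of these, LRAT was at 0 counts in all 4 libraries and DES in all but the BDS4 library, where it had 0.539 CPM.

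Replication and G1/S genes split in both directions with BDS4. Against TGF-β alone, 5 of the 45 were at least 2-fold higher (RRM2, ORC6, CCNE2, CDC6 and GINS4) and 4 at least 2-fold lower (MCM5, POLE2, MCM2 and DUT). A gene was called on a ratio of at least 2 in either direction whose 95% counting interval excluded 1, and this rule called 14.5% of all 16099 genes higher and 17.7% lower in that comparison. The members' count is therefore no larger than the background. At 1.5-fold, 14 members were higher and 8 lower, with 24.5% and 26.5% of all genes called. The members' median log2 ratio was 0.29, beside -0.011 for all genes, and their log2 ratios had an SD of 0.87 across genes. Intervals in brackets throughout are 95% exact intervals that cover counting error only.

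**Figure D1:**
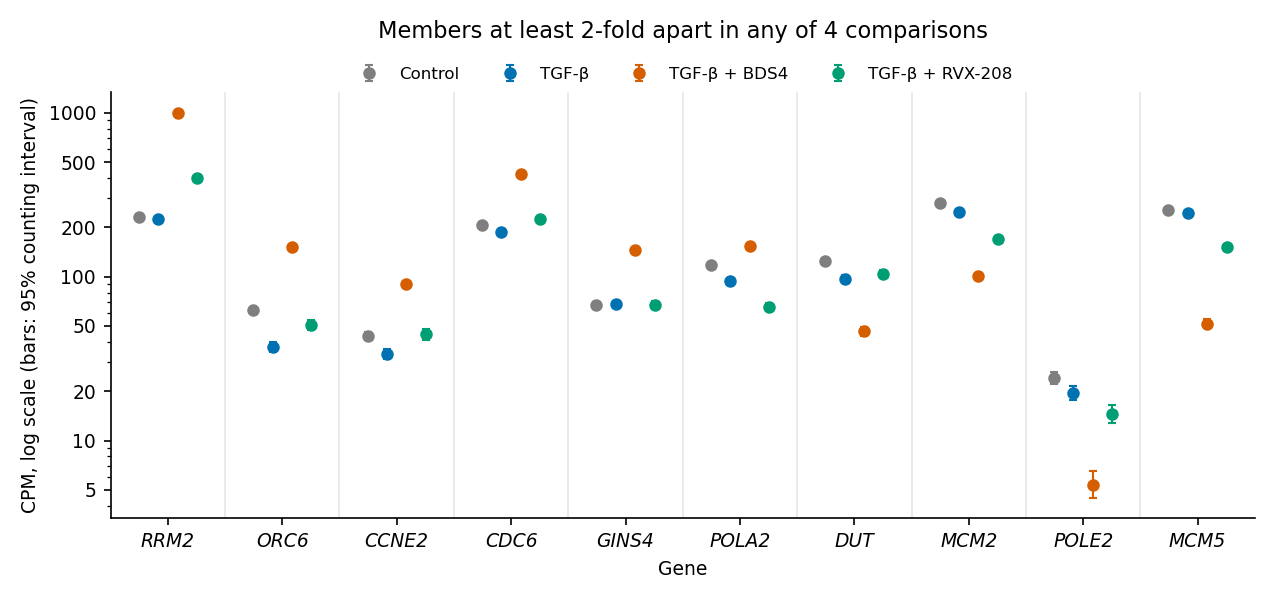
CPM on a log scale (vertical) of the 10 genes called in any of 4 comparisons (horizontal), 1 point per library, with 95% counting intervals as bars. The BDS4 point is the highest for RRM2, ORC6, CCNE2, CDC6, GINS4 and POLA2 and the lowest for DUT, MCM2, POLE2 and MCM5.

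TGF-β alone and RVX-208 left this set of genes within 2-fold. With TGF-β against control, 0 of 45 members were called higher and 0 lower, while 5.32% and 4.37% of all genes were. At 1.5-fold the only member was ORC6, which was lower, with 10.1% of all genes called higher and 8.99% lower. Members were mostly slightly under the control: 35 of 45 had a log2 ratio below 0, as did 51.1% of all genes, and the median was -0.18 beside -0.011 for all genes. With total-count scaling, which moved all genes by -0.07, 42 of 45 lay below 0. The interval lay below 1 for 28 of the 45 members and above 1 for 3 of 45, whereas for all genes the shares were 28.6% and 27.1%. With RVX-208 against TGF-β, 0 members were called in either direction, beside 2.94% of all genes called higher and 5.25% lower. At 1.5-fold RRM2 was higher and MCM5 lower, with 6.6% and 10.4% of all genes called. The median log2 ratio was 0.06 and the mean -0.00081, so no common direction can be given for the members in that comparison.

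Both compounds were given at 5 µM for 24 h in the presence of TGF-β, and were compared at that dose. Whether this dose acts equally strongly for both was not tested. BDS4 against RVX-208 gave 5 members higher (ORC6, RRM2, POLA2, GINS4 and CCNE2) and 3 lower (MCM5, POLE2 and DUT), with 11.7% of all genes called higher and 13.1% lower. At 1.5-fold, 13 members were higher and 4 lower, beside 21.0% and 21.8% of all genes. The median was 0.28. This comparison and that of BDS4 with TGF-β share the BDS4 library, so their lists are not independent of each other. In 25 of the 45 members the BDS4 library held the highest level of the 4 libraries and in 14 the lowest. For all genes tested the shares were 38.9% and 39.2%.

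**Figure D2:**
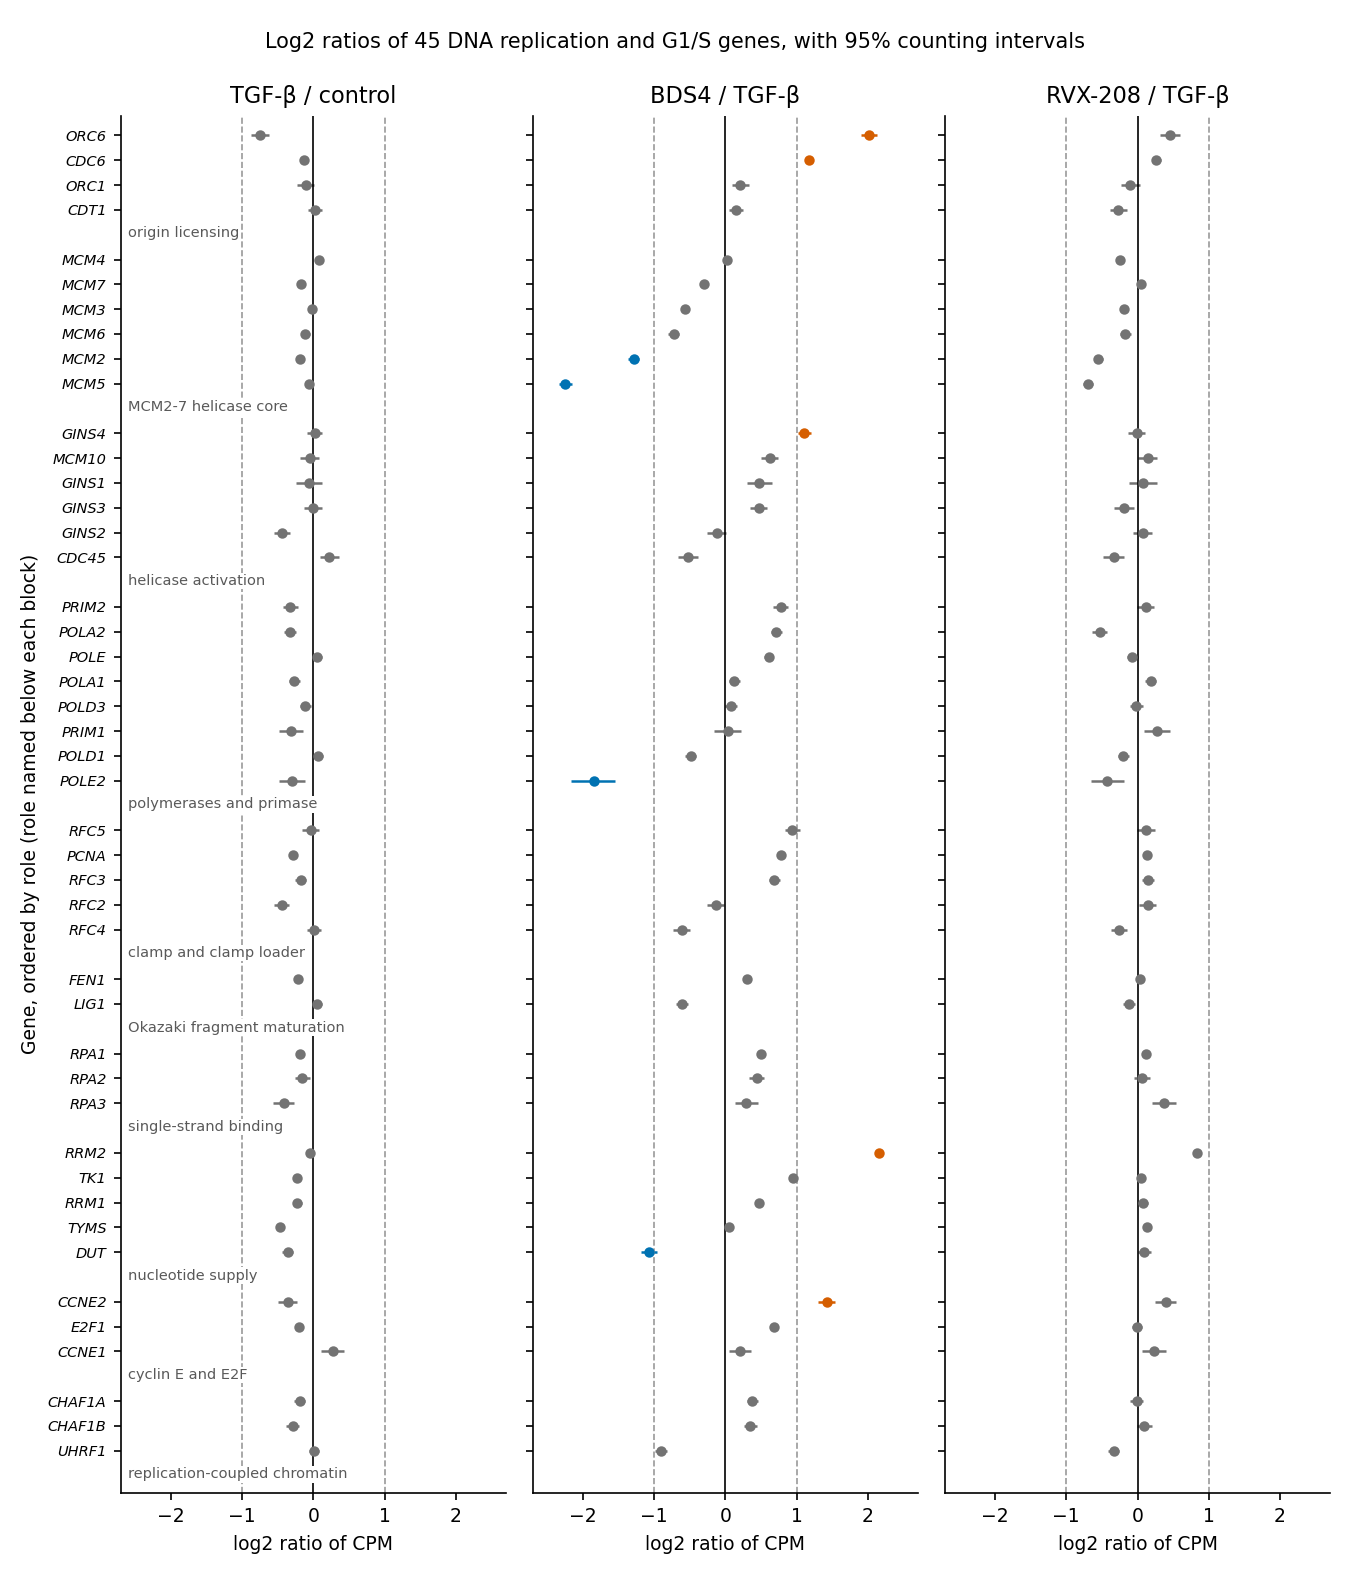
Log2 ratios of CPM (horizontal) of the 45 members that passed the filter (vertical, grouped by role), for TGF-β over control, BDS4 over TGF-β and RVX-208 over TGF-β. Bars are 95% counting intervals, dashed lines mark 2-fold, and orange and blue points are genes called higher and lower; the 9 coloured points all lie in the BDS4 panel, from -2.25 (MCM5) to 2.15 (RRM2).

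Of the 4 origin licensing genes, ORC6 and CDC6 were called higher with BDS4 than with TGF-β and ORC1 and CDT1 were not called, beside 14.5% of all genes called higher. The group's median log2 ratio was 0.69. ORC6, the smallest subunit of the origin recognition complex (chr16:46689643-46698394, GRCh38), stood at 62.3 CPM in the control, 37.1 with TGF-β, 151 with BDS4 and 50.9 with RVX-208. The TGF-β library was the lowest and the BDS4 library the highest of the 4. ORC6 was thus 1.68-fold lower (1.54 to 1.83) with TGF-β than in the control, and 4.05-fold higher (3.75 to 4.39) with BDS4 than with TGF-β alone. CDC6, the loader that brings the helicase to the origin (chr17:40287633-40304657), had 205, 187, 421 and 225 CPM in the same order of libraries. The control, TGF-β and RVX-208 values lay close together, and BDS4 was 2.25-fold (2.17 to 2.33) above TGF-β. CDT1, the partner of CDC6 in loading, varied little, with 71.6, 72.5, 80.5 and 60.2 CPM. ORC1, the largest subunit of the origin recognition complex, was equally flat at 48.4 to 59.7 CPM. The ratio of ORC6 to ORC1 per length, from the FPKM values, moved from 0.542 in the control to 0.348 with TGF-β, 1.22 with BDS4 and 0.511 with RVX-208.

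The 6 subunits of the MCM2-7 ring are needed in equal numbers to build the helicase. Their RNA levels changed by unequal amounts with BDS4. MCM5 (chr22:35400063-35425430) had 256 CPM in the control, 245 with TGF-β, 51.7 with BDS4 and 151 with RVX-208. It was 4.75-fold lower (4.44 to 5.07) with BDS4 than with TGF-β alone and 1.62-fold lower (1.55 to 1.70) with RVX-208. MCM2 (chr3:127598223-127622436) followed the same order at 282, 248, 101 and 169 CPM, a 2.44-fold (2.32 to 2.57) and a 1.46-fold (1.40 to 1.53) lower level with BDS4 and RVX-208. For both genes the control and TGF-β libraries lay close together at the top, RVX-208 was between and BDS4 at the bottom. MCM6 was 1.66-fold (1.57 to 1.75), MCM3 1.48-fold (1.43 to 1.53) and MCM7 1.24-fold lower with BDS4 than with TGF-β, none of them past 2-fold. MCM4 did not follow, at 266, 280, 285 and 236 CPM (log2 ratio 0.03 with BDS4 against TGF-β, -0.03 to 0.08), and lay below 0 with total-count scaling, which moved all genes by -0.099 in this comparison.

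The range of log2 ratios across the 6 subunits was 2.27 with BDS4 against TGF-β, 0.76 with RVX-208 and 0.26 with TGF-β against control. All genes also spread more widely with BDS4. Their quartiles were -0.68 and 0.60 with BDS4, -0.28 and 0.24 with RVX-208, and -0.25 and 0.25 with TGF-β against control. Whether the 6 subunits spread more than other genes was not tested. The summed level of the 6 subunits with BDS4 was 65.5% of that with TGF-β alone, and 85.0% with RVX-208. With BDS4, 2 of 6 were called lower and 0 higher, beside 17.7% and 14.5% of all genes; the median was -0.65, and -0.75 when scaled by total count. By FPKM, MCM3 was the highest subunit in all 4 libraries; by CPM per kilobase of annotated exons it was level with MCM7 with BDS4 (81.1 and 81.2). By FPKM, MCM3 stood 3.10-fold above MCM5 with TGF-β and 9.93-fold with BDS4.

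**Figure D3:**
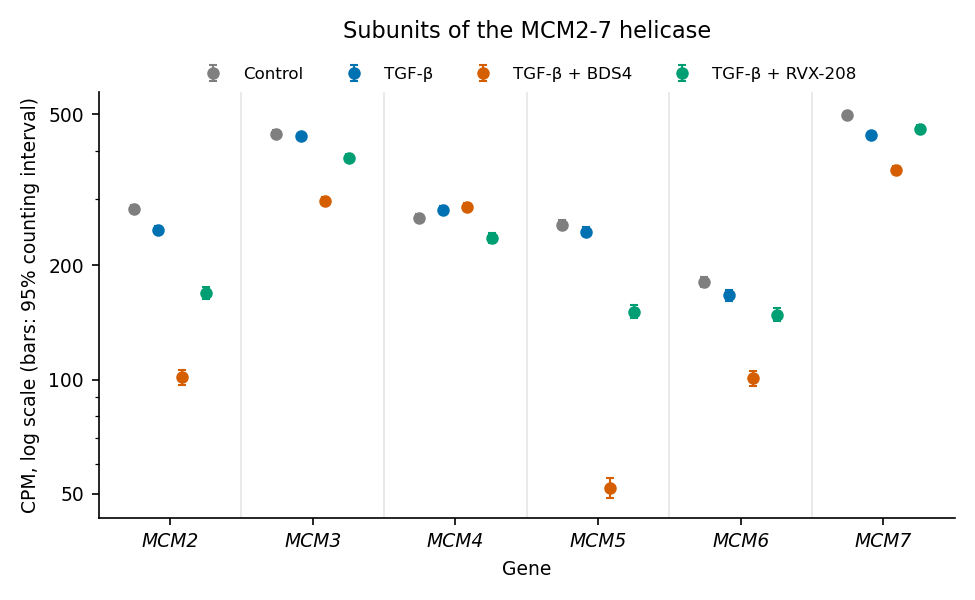
CPM on a log scale (vertical) of the 6 MCM2-7 subunits (horizontal), 1 point per library, with 95% counting intervals as bars. MCM5 falls from 245 CPM with TGF-β to 51.7 with BDS4, while MCM4 stays between 236 and 285 CPM in all 4 libraries.

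Of the 6 genes that turn the loaded ring into an active helicase, 1 was called higher with BDS4 than with TGF-β and 0 lower, beside 14.5% and 17.7% of all genes. It was GINS4, a subunit of the 4-part GINS complex (chr8:41529206-41545046), which had 66.9 CPM in the control, 67.7 with TGF-β, 146 with BDS4 and 67.0 with RVX-208. The 3 other libraries gave nearly the same value, and BDS4 was 2.16-fold (2.03 to 2.30) above TGF-β and 2.18-fold (2.03 to 2.33) above RVX-208. Its partners were nearer to TGF-β: GINS1 at a log2 ratio of 0.48 (0.30 to 0.66), GINS3 at 0.47 (0.35 to 0.59) and GINS2 at -0.12 (-0.25 to 0.01). MCM10, which helps to start the helicase, was at 0.62 (0.50 to 0.74). CDC45, the subunit that joins MCM2-7 and GINS in the active helicase, was at -0.52 (-0.67 to -0.38). With RVX-208 the 6 genes of this group stayed between -0.33 and 0.14.

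Among the polymerase subunits that are members, those of DNA polymerase epsilon, the enzyme of the leading strand, diverged most with BDS4 against TGF-β. POLE3 and POLE4 of this enzyme are not members and are not given here. Its accessory subunit POLE2 (chr14:49643555-49688422) had 24.0 CPM in the control, 19.5 with TGF-β, 5.39 with BDS4 and 14.5 with RVX-208, and so was lowest with BDS4. It was 3.61-fold lower (2.92 to 4.49) with BDS4 than with TGF-β alone. The catalytic subunit POLE had 152, 157, 240 and 149 CPM and was 1.53-fold (1.46 to 1.60) higher. The ratio of POLE to POLE2 by FPKM rose from 1.76 with TGF-β to 9.69 with BDS4, against 1.37 in the control and 2.24 with RVX-208. In DNA polymerase delta, POLD1 was at a log2 ratio of -0.48 and POLD3 at 0.08 with BDS4 against TGF-β.

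In the polymerase alpha-primase complex, which lays down primers, PRIM2 was at 0.78, POLA1 at 0.12 and PRIM1 at 0.03 with BDS4 against TGF-β. PRIM1 shares 1.35% of its exon bases on the same strand with NACA and 14.9% with AC117378.1. From TGF-β to BDS4, NACA went from 3640 to 2667 counts and AC117378.1 from 21 to 5. Summed with them the log2 ratio was -0.29, which also holds the change of NACA, so the sum cannot settle the direction of PRIM1. POLA2, its regulatory subunit, had 118 CPM in the control, 94.3 with TGF-β, 155 with BDS4 and 65.3 with RVX-208, and was called 2.37-fold higher (2.21 to 2.54) with BDS4 than with RVX-208. POLA2 shares 35.1% of its exon bases on the same strand with another annotated gene, AP000944.2, whose counts were 43, 104, 128 and 638 in the 4 libraries. With the counts of the pair summed, the log2 ratio was 0.64 and the call was lost, so the value for POLA2 is uncertain.

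PCNA, the sliding clamp that holds polymerases on DNA, had 369 CPM in the control, 303 with TGF-β, 522 with BDS4 and 334 with RVX-208. BDS4 was 1.73-fold (1.67 to 1.78) above TGF-β, which is over 1.5-fold and under 2-fold. Of its loader, replication factor C, the 4 subunits that are members did not move together with BDS4 against TGF-β. RFC5 was at a log2 ratio of 0.94 (0.83 to 1.05), RFC3 at 0.68, RFC2 at -0.14 and RFC4 at -0.62. The large subunit RFC1 is not a member and is not given here. With RVX-208 these 4 loader genes lay between -0.25 and 0.15. Of the pair that finishes lagging strand fragments, the flap nuclease FEN1 was at 0.31 and the ligase LIG1 at -0.61 with BDS4. FEN1 shares 1.98% of its exon bases on the same strand with FADS2. With TGF-β and BDS4, FEN1 had 7190 and 8222 counts, and FADS2 had 10761 and 4131. The summed pair was at -0.42, which also holds the fall of FADS2 itself, so the sum cannot settle the direction of FEN1. The 3 subunits of RPA, which coats single-stranded DNA, stayed together: RPA1 was at 0.50, RPA2 at 0.44 and RPA3 at 0.29, a range of 0.20.

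The highest ratio of any member was that of a nucleotide supply gene. RRM2, the subunit of ribonucleotide reductase that limits its activity in S phase (chr2:10120698-10131419), stood at 232 CPM in the control, 225 with TGF-β, 999.6 with BDS4 and 401 with RVX-208. Control and TGF-β were alike, RVX-208 was above both and BDS4 above all. The level of RRM2 with BDS4 was 4.45-fold (4.31 to 4.59) that with TGF-β alone, and the level with RVX-208 was 1.78-fold (1.72 to 1.85). BDS4 was 2.49-fold (2.43 to 2.56) above RVX-208. RRM1, the large subunit of the same enzyme, changed much less, with 223, 191, 264 and 202 CPM. The ratio of RRM2 to RRM1 by FPKM was 0.614 in the control, 0.696 with TGF-β, 2.24 with BDS4 and 1.17 with RVX-208. Annotated pseudogenes of RRM2 held at most 24 counts in any library.

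DUT, which removes dUTP and supplies the precursor of thymidine nucleotides (chr15:48331011-48343373), was the 1 nucleotide supply gene called lower. It had 125 CPM in the control, 97.4 with TGF-β, 46.4 with BDS4 and 104 with RVX-208. BDS4 was the lowest library, and was 2.10-fold (1.94 to 2.27) below TGF-β. Of its exon bases, 14.5% overlap DUT-AS1 on the opposite strand, which held 27 to 49 counts. TK1, the S phase thymidine kinase, had 281, 240, 465 and 248 CPM and at 1.93-fold (1.87 to 1.999) with BDS4 against TGF-β was just short of the rule. TYMS, thymidylate synthase, had 404, 290, 302 and 318 CPM: it was 1.39-fold (1.35 to 1.44) lower with TGF-β than in the control, and neither compound moved it far from TGF-β. TYMS overlaps ENOSF1 on the opposite strand over 39.1% of its exon bases, and no source used here says whether the counting used strand.

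Among the regulators of S phase entry, the E type cyclins differed from each other. CCNE2, cyclin E2 (chr8:94879770-94896678), had 43.5 CPM in the control, 33.8 with TGF-β, 90.4 with BDS4 and 44.4 with RVX-208. The BDS4 value was the highest, 2.67-fold (2.46 to 2.92) above TGF-β and 2.03-fold (1.87 to 2.22) above RVX-208, and the latter call was lost with total-count scaling (log2 ratio 0.96) and with TMM factors over all genes (0.99). Of its exon bases, 37.0% overlap INTS8 on the opposite strand, so the value for CCNE2 is uncertain; INTS8 had 845, 640, 1043 and 660 counts in the 4 libraries. CCNE1, cyclin E1, had 24.5, 29.6, 34.2 and 34.8 CPM, lowest in the control and nearly equal with the compounds. E2F1, an activator of S phase genes, had 227, 196, 315 and 195 CPM and was 1.60-fold (1.54 to 1.67) higher with BDS4 than with TGF-β.

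Of the chromatin factors at the fork, UHRF1, which recruits the maintenance DNA methyltransferase, had 154 CPM in the control, 155 with TGF-β, 83.0 with BDS4 and 123 with RVX-208. It was 1.87-fold (1.77 to 1.99) lower with BDS4 than with TGF-β, just inside 2-fold, and past it with total-count scaling (log2 ratio -1.003). The histone chaperone subunits CHAF1A and CHAF1B were at log2 ratios of 0.38 and 0.35. CHAF1B shares 1.74% of its exon bases on the same strand with MORC3, which had 852 counts with TGF-β and 2063 with BDS4. That pair summed was at 0.79, which also holds the rise of MORC3, so the sum cannot settle the size of the change in CHAF1B. The members nearest to the rule without meeting it with BDS4 were thus TK1 (0.95), RFC5 (0.94) and UHRF1 (-0.90), and those that met it most narrowly were DUT (-1.07) and GINS4 (1.11).

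Against the untreated control rather than TGF-β, BDS4 gave 5 members higher (RRM2, ORC6, GINS4, CCNE2 and CDC6) and 4 lower (MCM5, POLE2, MCM2 and DUT), with 14.9% and 18.2% of all genes called. With total-count scaling the split was 2 higher (ORC6 and RRM2) and 6 lower, with MCM6 and UHRF1 added. MCM5 was 4.96-fold (4.64 to 5.30) and POLE2 4.46-fold (3.63 to 5.52) lower than in the control, and RRM2 4.32-fold (4.19 to 4.45) higher. The median of all members was 0.10, and -0.07 with total-count scaling. RVX-208 against control gave 0 members higher and 0 lower, beside 5.39% and 6.88% of all genes, with a median of -0.17. These comparisons share the control and the compound libraries with those above.

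Levels can be compared between genes only per length. The length behind each deposited FPKM value, worked out from the counts, was a median of 1.73 times the exon length in GENCODE 29 and up to 11.6 times for GINS1 (47170 against 4068 bases), so levels were also taken as CPM per kilobase of GENCODE 29 exons. PCNA, FEN1, TYMS, TK1 and MCM3 were among the top 6 members by both scales in the control, TGF-β and RVX-208 libraries. PCNA led in the control, at 225 FPKM and 251 CPM per kilobase. With BDS4 the top 6 by both scales were PCNA, TK1, RRM2, FEN1, E2F1 and TYMS: RRM2 had come in, at 188 CPM per kilobase against 42.2 with TGF-β alone, and MCM3 had dropped out, at 81.1 against 120 CPM per kilobase. The member that passed the filter with the lowest level per kilobase with BDS4 was POLE2, at 1.83 CPM.

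RefSeq promoter windows (GRCh38.p14, 250 bases before to 50 bases after a transcription start) were matched for 39 of the 46 members. They were searched on both strands for the E2F-type motifs TTTCCCGC, TTTGGCGC, TTTCGCGC and TTTGCCGC and for CCAAT. A gene with several windows was counted when any of them held the motif. An E2F-type motif was so found in 21 of 39 members (53.8%), against 3.99% of 27305 genes of the table, and CCAAT in 56.4% against 39.7%. Counted by window, an E2F-type motif was in 41.5% of 53 member windows, against 3.31% of all 35116. CCAAT was in 52.8% of member windows, against 34.6%. Of the members called higher with BDS4 against TGF-β, 3 had a window: 1 of these 3 held an E2F-type motif and 3 of 3 CCAAT. Of those called lower, also 3 had a window: 3 of 3 held an E2F-type motif and 0 of 3 CCAAT. Of 32 members with a window that passed the filter and were called in neither direction, 16 held an E2F-type motif and 19 CCAAT. With so few called genes these counts are a description of the letters present, and draw nothing about any factor. The windows of these 6 genes are shown up to 30 bases after the start, 5′ to 3′ on the gene's strand, because they belong to the genes that went in opposite directions: ORC6, CDC6 and RRM2 first, then MCM2, POLE2 and DUT. They lie at chr16:46689409-46689688 on the plus strand, chr17:40287629-40287908 on the plus strand, chr2:10122489-10122768 on the plus strand, chr3:127598161-127598440 on the plus strand, chr14:49688185-49688464 on the minus strand and chr15:48331947-48332226 on the plus strand. Capitals mark E2F-type motifs and CCAAT, which reads ATTGG where it lies on the other strand.
ORC6: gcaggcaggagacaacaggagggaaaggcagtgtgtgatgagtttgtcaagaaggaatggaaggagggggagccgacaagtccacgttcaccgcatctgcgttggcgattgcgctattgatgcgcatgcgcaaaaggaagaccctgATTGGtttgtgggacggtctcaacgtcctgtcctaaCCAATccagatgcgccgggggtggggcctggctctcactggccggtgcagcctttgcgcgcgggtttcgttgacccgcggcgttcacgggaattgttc
CDC6: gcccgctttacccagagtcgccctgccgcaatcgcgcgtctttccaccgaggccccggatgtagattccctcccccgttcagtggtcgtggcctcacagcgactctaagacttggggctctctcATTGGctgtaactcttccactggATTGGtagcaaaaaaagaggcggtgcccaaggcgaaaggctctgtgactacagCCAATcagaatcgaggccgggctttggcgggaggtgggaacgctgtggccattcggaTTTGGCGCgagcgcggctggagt
RRM2: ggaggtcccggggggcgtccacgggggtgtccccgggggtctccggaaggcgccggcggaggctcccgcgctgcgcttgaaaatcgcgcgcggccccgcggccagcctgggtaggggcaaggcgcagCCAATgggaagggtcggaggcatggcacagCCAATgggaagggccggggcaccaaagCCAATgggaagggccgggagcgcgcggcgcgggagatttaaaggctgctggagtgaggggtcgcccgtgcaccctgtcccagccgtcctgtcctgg
MCM2: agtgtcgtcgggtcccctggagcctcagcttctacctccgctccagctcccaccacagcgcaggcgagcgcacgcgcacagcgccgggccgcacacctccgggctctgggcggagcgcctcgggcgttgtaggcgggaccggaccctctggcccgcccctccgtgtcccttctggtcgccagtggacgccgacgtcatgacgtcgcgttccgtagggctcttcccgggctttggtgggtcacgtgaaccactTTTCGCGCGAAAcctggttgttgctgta
POLE2: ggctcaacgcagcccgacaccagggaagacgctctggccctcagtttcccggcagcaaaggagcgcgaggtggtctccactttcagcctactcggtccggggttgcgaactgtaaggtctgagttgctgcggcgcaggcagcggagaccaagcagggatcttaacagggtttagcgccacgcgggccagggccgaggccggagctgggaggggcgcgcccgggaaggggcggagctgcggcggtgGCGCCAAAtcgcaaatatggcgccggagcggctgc
DUT: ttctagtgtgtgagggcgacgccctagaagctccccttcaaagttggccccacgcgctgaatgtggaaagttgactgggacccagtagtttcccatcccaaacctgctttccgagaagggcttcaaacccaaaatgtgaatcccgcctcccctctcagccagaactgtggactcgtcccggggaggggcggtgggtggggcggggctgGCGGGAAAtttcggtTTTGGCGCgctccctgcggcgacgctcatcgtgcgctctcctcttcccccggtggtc
The windows of ORC6, CDC6 and RRM2 held 2, 3 and 3 CCAAT motifs. In CDC6 the E2F-type motif begins at base 8 after the start. In MCM2 overlapping E2F-type motifs of both strands begin at bases 3 and 7 after the start, in POLE2 the motif begins 5 bases before it, and in DUT the motifs begin 42 and 27 bases before it. RefSeq lists 2 windows for RRM2 and 4 for DUT; the first is shown for RRM2 and the one with E2F-type motifs for DUT.

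Other genes of the same pathways were taken from lists fixed by name. Their counts stand beside the 14.5% of all genes called higher and 17.7% called lower with BDS4 against TGF-β, and whether any list differs from all genes was not tested. Of 34 further replication genes that passed the filter, 4 were higher with BDS4 than with TGF-β (CLSPN, ORC4, RNASEH2C and MCM8) and 1 lower (RNASEH2B), with a median of 0.08. CLSPN encodes claspin, a fork mediator of checkpoint signalling, and went from 142 to 365 CPM. Of 18 further nucleotide supply genes, 3 were higher (PPAT, RRM2B and SAMHD1) and 4 lower (NME1, DCTPP1, DTYMK and DCTD). PPAT, the first enzyme of purine synthesis, went from 53.0 to 143 CPM, and NME1, a nucleoside diphosphate kinase, from 126 to 28.4 CPM. NME1 shares exon bases with the readthrough gene NME1-NME2, so its value is uncertain, and so is that of RNASEH2C, which overlaps KAT5 on the opposite strand. Of 20 further G1/S regulators, 1 was higher (LIN54) and 2 lower (RBL2 and E2F4); RBL2, the retinoblastoma family protein p130, went from 89.5 to 33.5 CPM. With RVX-208 against TGF-β, 0 genes of these 3 lists were called in either direction, beside 2.94% and 5.25% of all genes.

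Among the 12 D cyclins, their kinases and CDK inhibitors, which act upstream of E2F, 5 were higher and 3 lower with BDS4 than with TGF-β, beside the same 14.5% and 17.7%. CDKN1A, the CDK inhibitor p21, had 86.5 CPM in the control, 108 with TGF-β, 444 with BDS4 and 177 with RVX-208. CCND1, cyclin D1, had 514, 1280, 360 and 966 CPM, and CDK6, its kinase partner, 81.6, 138, 21.5 and 105 CPM. For these 3 genes BDS4 gave an extreme value, high for CDKN1A and low for the others. They do not stand for the list, which went both ways with a median log2 ratio of 0.43. Its other called genes are not given here. CCND1 was also 2.49-fold higher with TGF-β than in the control, and CDKN2C, a CDK4 and CDK6 inhibitor, 2.81-fold lower.

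Of 30 genes of mitosis and G2/M, whose products act after replication, 0 were higher and 9 lower with BDS4 than with TGF-β, with a median of -0.58. Of all genes, 14.5% were called higher and 17.7% lower. PLK1, a kinase of mitotic entry, had 131 CPM with TGF-β and 20.8 with BDS4. Of 20 fork protection and S phase repair genes, 4 were higher (BLM, EXO1, XRCC2 and BRCA2) and 0 lower, with a median of 0.35. At 1.5-fold, 7 were higher and 2 lower, beside 24.5% and 26.5% of all genes. With RVX-208, 0 genes of the mitosis or the repair list were called against TGF-β, beside 2.94% of all genes higher and 5.25% lower.

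**Figure D4:**
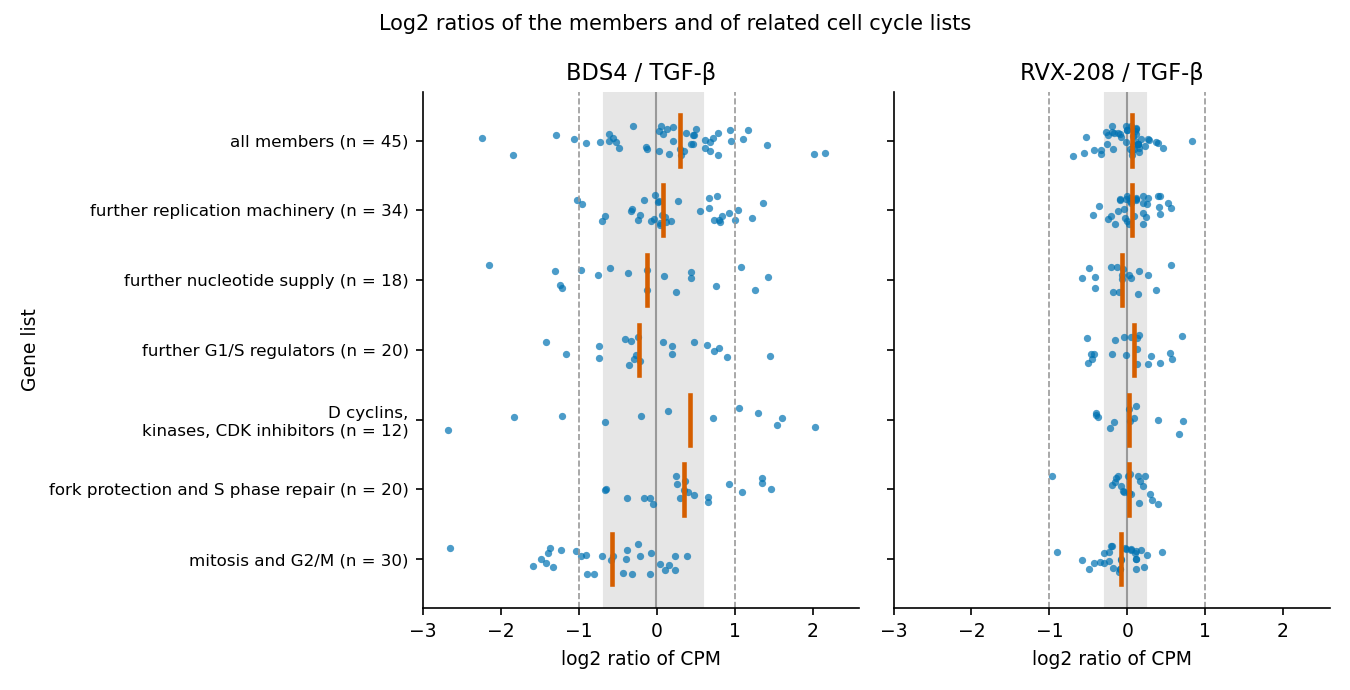
Log2 ratios of CPM (horizontal) of the members and of 6 related gene lists (vertical), for BDS4 over TGF-β and RVX-208 over TGF-β. Each point is a gene, orange bars are list medians, the grey band spans the quartiles of all 16099 genes and dashed lines mark 2-fold; with BDS4 the members' median is 0.29 and that of the mitosis list -0.58.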

How the data were processed

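RNA sequencing counts of 4 LX-2 libraries were analysed, 1 per group. The values the authors deposited are whole-number counts for each gene, not normalized. The deposited FPKM values were made with StringTie 1.3.0, per the series' design text. Reads were aligned to GRCh38 with TopHat2 2.0.6 after base calling with CASAVA 1.8, per the submitters' processing notes. The library kit was stranded, per the series' design text. The FPKM values followed count divided by library total and 1 fixed length per gene in 9069 genes with over 200 counts, to within 0.00042%, and were used only for levels per length. Counting program, annotation release and use of strand: not given in the sources used here.

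Counts were scaled to CPM in R 4.3.3 by TMM (edgeR 4.0.16), with factors of 1.06 for the control, 1.01 for TGF-β, 0.943 for BDS4 and 0.989 for RVX-208, set by genes that reached 1 CPM in any library. Ratios across all 16099 genes were given 95% conditional exact (Clopper-Pearson) counting intervals, and a gene was called at 2-fold with an interval excluding 1, which is a rule of size and no test. The code was tested on simulated data. Positions and overlaps came from GENCODE 29, which holds all 46 members. The lengths behind the FPKM values were a median of 1.73 times those of GENCODE 29. Exon overlaps in the annotation used for counting may therefore differ from those given here. Python 3.11.15, numpy 2.4.6, scipy 1.17.1, pandas 2.3.3 and matplotlib 3.10.9 were used.

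The members and lists were chosen with earlier results of these data known. Values in every library were given for members called in any of 4 comparisons and for PCNA, E2F1, CCNE1, CCNE2, RRM1, RRM2, TYMS, CDC6, CDT1, MCM2 and UHRF1, with up to 4 called genes per further list. Values of MCM4, POLE and TK1, and of ratios within complexes, were added after they were seen. Alternatives were total-count and median-of-ratios scaling (DESeq2 1.42.0), no filter and a filter of 5 CPM, a fold of 1.5, genes that share exons summed, a prior count of 2 and the mean for the median. TMM factors over all genes, and the comparisons with control of BDS4 and RVX-208, were added after the data were seen.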

Additional observations from a re-analysis of the deposited data

How the results depend on the processing

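No paired analysis was possible because there was 1 library per group, and for the same reason no replicate could be left out. The counts of members called at 2-fold moved by at most 1.5 times under every scaling, filter and exon-sharing alternative run, except with BDS4 against control, where the 5 members higher became 2 with total-count scaling and 3 with TMM factors over all genes. At 1.5-fold they were 1 lower for TGF-β against control, 14 higher and 8 lower for BDS4 against TGF-β, 1 higher and 1 lower for RVX-208 against TGF-β, and 13 higher for BDS4 against RVX-208. With BDS4 against TGF-β, the members' median of 0.29 became 0.19 with total-count scaling and 0.17 as a mean. With BDS4 against RVX-208 the mean was 0.17, and with RVX-208 against TGF-β the mean of -0.00081 was on the other side of 0 from the median of 0.06. With BDS4 against control the median of 0.10 became -0.068 with total-count scaling, which moved the median of all genes by -0.17. Under that scaling CDC6, GINS4 and CCNE2 lost and MCM6 and UHRF1 gained a call in that comparison (log2 ratios 0.86, 0.96, 0.89, -1.01 and -1.06). In BDS4 against TGF-β, the sums of FEN1 and of PRIM1 with the genes sharing their exons had the opposite sign to each gene alone (-0.42 and -0.29). The cause of these shifts was not tested. With 1 library per group, no depth would separate a treatment from variation between cultures. POLE2 has the widest intervals of the called members, from 110 counts with BDS4.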
